A study of Mus musculus with 12 samples.

Results

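The genes described here are the Wnt, TGF-beta and BMP pathway genes of a mouse osteoblast-like cell line, compared between cells under fluid shear and cells kept static. The rule used symbols only, though it was set with earlier results of these data known. A probe was a member when the array's annotation gave it 1 gene symbol and that symbol named a Wnt ligand, a Wnt receptor, a secreted Wnt inhibitor, a core cytoplasmic or nuclear component of Wnt signalling, or a ligand, activator, binding protein, receptor, Smad or Id factor of TGF-beta and BMP signalling. This gave 112 probes of 55 genes, out of 18511 probes of 10225 genes with 1 symbol. The Wnt arm held 50 probes of 26 genes and the TGF-beta and BMP arm 62 probes of 29 genes, and both arms are kept apart below.

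MC3T3-E1 is a clonal line from mouse calvaria, so all samples come from 1 cell line. The 6 shear samples were confluent monolayers on glass slides in a parallel plate chamber, under flow that pulsed at 1 Hz for 5 h and gave a mean shear stress of 5 dyn/cm2. The 6 control samples were kept static in the same kind of setup. All cells had grown in alpha-MEM with 5% fetal bovine serum and penicillin-streptomycin, and the flow medium held 1% serum. The labels name no genetic change in either group. Whether the samples of a group were separate cultures is not stated, so the spread behind the p-values may be technical only.

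In canonical Wnt signalling, a secreted Wnt protein binds a Frizzled receptor with its co-receptor Lrp5 or Lrp6, a cytoplasmic complex of Axin, Apc and Gsk3b stops marking beta-catenin (Ctnnb1) for destruction, and beta-catenin enters the nucleus and acts with TCF/LEF factors. TGF-beta and BMP ligands bind pairs of type I and type II receptors, which phosphorylate Smad proteins. Smad2 and Smad3 carry the TGF-beta and activin signal, Smad1 and Smad5 the BMP signal, Smad4 joins both, and Smad7 inhibits. In bone, Wnt and BMP signalling are known for driving osteoblast differentiation, and Wnt signalling is known for its part in the skeletal response to loading.

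RefSeq promoter windows (build GRCm38.p6, from 250 bases before to 50 bases after the gene start) were found for 38 of the 55 genes. Stretches of the windows of Tgfb2 and Ltbp1 are shown because these genes encode a TGF-beta ligand and a protein that binds latent TGF-beta outside the cell, both are among the 6 genes of their arm with the smallest p, and each window holds one of the motifs searched. The capitals mark an E-box (CACGTG) in Tgfb2, at chr1:186705990-186706139 on the minus strand, and a cyclic AMP response element (TGACGTCA) in Ltbp1, at chr17:75005379-75005528 on the plus strand. Each stretch is the 150 bases just before the gene start, 5′ to 3′.
Tgfb2: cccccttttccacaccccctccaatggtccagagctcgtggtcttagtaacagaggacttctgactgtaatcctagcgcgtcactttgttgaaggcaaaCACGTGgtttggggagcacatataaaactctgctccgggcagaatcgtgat
Ltbp1: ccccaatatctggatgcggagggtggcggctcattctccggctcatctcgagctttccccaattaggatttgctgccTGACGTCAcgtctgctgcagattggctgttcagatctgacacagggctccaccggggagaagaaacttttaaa

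Each motif was searched on both strands of the whole windows, and a match is a description of these letters, not of a bound site. The E-box was in 5 of the 38 genes (Acvr1b, Bmp4, Fzd9, Lef1 and Tgfb2), against 8.09% of all genes with a window. The cyclic AMP response element was in Ltbp1 alone among the 38, against 2.03% of all genes. The TCF/LEF motif CTTTGA was in 6 of the 38 genes, against 18.2%: Dkk1, Fzd1, Gsk3b, Lef1 and Wnt5b of the Wnt arm, and Id4. The GC-rich Smad motif GGCGCC was in 19 of the 38 genes, 10 of the Wnt arm and 9 of the other, against 13.4%. A gene counted if any of its windows matched, and by window this motif was in 22 of 53, against 11.9% of all windows. The GC content of the windows was not compared, so this share is not read as an excess of Smad sites. The Smad palindrome GTCTAGAC was in 0 of the 38, against 0.248%, and the AP-1 motif TGACTCA was in Wnt5b only, against 5.95%.

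The signal of a probe is the authors' log2 ratio of its net fluorescence to the median of its block of 598 features, so a signal of 0 is the block's median, 1 log2 unit is a doubling, and a change shared by all genes would not show. Signals of different probes are not compared with one another. The 12 samples lie on 6 spotted 2-colour arrays, 2 samples of 1 group per array. Within a group, the array partners were inferred from the dyes to be replicates 1 with 2, 3 with 4, and 5 with 6. Member probes correlated at 0.916 to 0.971 between samples of 1 inferred array and at 0.846 to 0.932 between other samples of a group. The array of control replicates 3 and 4 stood apart, with values for 72.9% and 64.2% of the features against 76.1% to 82.9% in the other samples, so results that moved most without it are given both ways. Without it 10 of the 41 tested Wnt arm probes and 7 of the 50 tested TGF-beta and BMP arm probes changed sign. Of the osteoblast markers, Runx2, Sp7, Bglap and Ibsp had no probe with 1 symbol and enough values to be tested. Col1a1, Col1a2, Sparc, Alpl, Gja1 and Msx2 were measured and missed the threshold, and Lox and Dlx5 passed it. Of the markers of macrophages, endothelium, fat, cartilage and muscle, 27 probes were tested, of which 0 passed it by limma and 1 had an unadjusted p under 0.05.

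A member was tested where it had a value in at least 4 of the 6 samples of each group. This held for 91 probes of 46 genes, 41 probes of 21 genes in the Wnt arm and 50 probes of 25 genes in the other. Of the 112 member probes, 81 had a value in all 12 samples (72.3%, against 59.5% of all features) and 9 had none in any (8.0%, against 11.2%). The genes with no tested probe were Wnt5a, Fzd4, Fzd7, Lrp5 and Axin2 in the Wnt arm and Bmp4, Grem1, Bmpr1b and Id1 in the TGF-beta and BMP arm. The rule by which a spot was left without a value is not given in the sources used here, so a missing value is not read as a low level. Wnt5a and Fzd4 had values in control replicates 1 and 2 only. Lrp5, the Wnt co-receptor, had values in 4 control and 2 shear samples.

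No member of either arm passed the threshold, an adjusted p under 0.05 in limma with adjustment over all 21883 probes tested. Over all probes, 310 were higher and 44 lower under shear, 1.62% of those tested. At an unadjusted p under 0.05, the Wnt arm had 0 probes higher and 2 lower (Fzd5 and Ctnnb1), and the TGF-beta and BMP arm had 5 higher (Smad2, Smad1, Tgfb2, Acvr2b and Ltbp1) and 0 lower. Over all probes 11.0% were higher and 3.57% lower at that level, so the share of higher probes in the TGF-beta and BMP arm, 5 of 50, and that of lower probes in the Wnt arm, 2 of 41, were near the background. The Wnt arm's 0 of 41 higher and the other arm's 0 of 50 lower lay below the shares of all probes, which was not tested. All these counts moved with the samples and the scale. Without the array of control replicates 3 and 4, the TGF-beta and BMP arm had 1 higher and 1 lower, the Wnt arm 0 and 3, and all 21301 probes then tested 1778 and 1486. Centred on the features measured in all samples, the TGF-beta and BMP arm had 2 higher and 0 lower, the Wnt arm 0 and 3, and all probes 1827 and 1669. Among probes with a value in all 12 samples, every shear sample lay above every control sample for 6.52% of all probes and below for 1.18%. In the TGF-beta and BMP arm this held upwards for 3 of 45 such probes (Smad2, Ltbp1 and 1 of Smad1), and in the Wnt arm for 0 of 36 in either direction.

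The median change was 0.04 on the log2 scale over the 41 Wnt arm probes, 0.20 over the 50 TGF-beta and BMP arm probes and 0.10 over all probes. Of the Wnt arm probes 23 (56.1%) lay above 0, of the TGF-beta and BMP arm 37 (74%), and of all probes 60%. Centred on the features measured in all samples these shares were 34.1%, 56% and 47.8%, with cyclic loess 36.6%, 54% and 48.5%, and without the array of control replicates 3 and 4 they were 36.6%, 64% and 50.5%. The medians also depended on how samples were set on 1 scale: centred on the features measured in all samples they were -0.09, 0.07 and -0.02, so the Wnt median changed sign while the order of the arms did not. Without the array of control replicates 3 and 4 they were -0.10, 0.12 and 0.01. The Wnt median also changed sign with 1 probe per gene, where the medians were -0.12, 0.16 and 0.11. The shares above 0 were then 42.9%, 76% and 61%. The difference between the arms was not tested, since probes of an arm are not replicates.

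**Figure D1:**
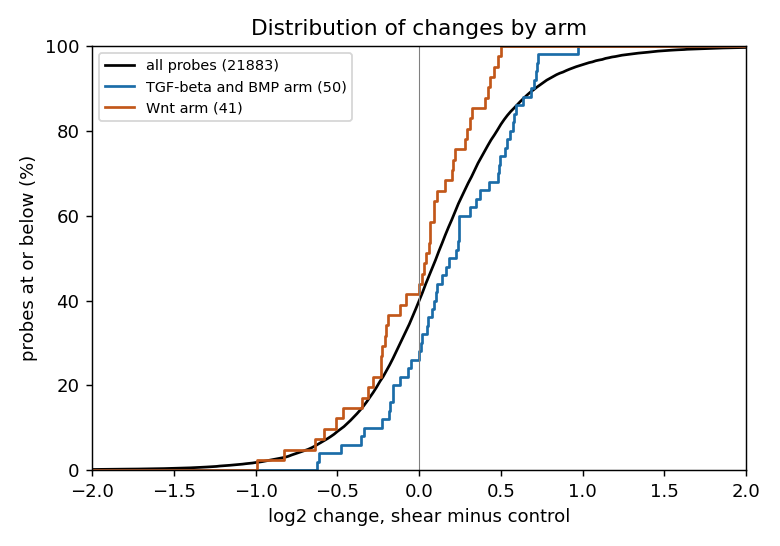
Share of probes (vertical axis, %) with a log2 change, shear minus control, at or below the value on the horizontal axis, for all 21883 probes tested (black), the 50 probes of the TGF-beta and BMP arm (blue) and the 41 probes of the Wnt arm (orange). The blue curve lies right of the black one at its middle (medians 0.20 and 0.10), the orange one left of it (0.04), and neither arm reaches beyond -0.99 or 0.97.

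The intervals show what these arrays could have missed. The 95% intervals of the member probes had a median half-width of 0.73 in the Wnt arm and 0.71 in the other, and lay wholly within 1 log2 unit of no change for 20 of 41 and 27 of 50 probes. For the other probes a doubling or halving is not excluded by the interval. On simulated data with these means, spreads and arrays over 21883 features, 8 of 100 features changed by 1 log2 unit and 71 of 100 changed by 2 were called. No other features were changed, and there were 83 calls against 354 in the data. The adjusted threshold was therefore harder to reach than in the data. These counts, from 1 random draw, may be too low, and an earlier draw that was not kept recovered more features of both sizes. The number of arrays limits this precision.

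The leading genes of the TGF-beta and BMP arm are Smads, a ligand with its binding protein, and receptors. Smad2 (Entrez gene 17126, probe 14227), which carries the TGF-beta and activin signal, had the smallest p of all members. Its log2 signal was 0.77 to 1.04 in control samples, with a median of 0.87, and 1.26 to 1.63 in shear samples, with a median of 1.49. Every shear sample was above every control sample. The change was 0.58 ± 0.19 (SE, n = 6 per group), 1.49-fold, with a 95% interval of 0.16 to 0.99 and an adjusted p of 0.17 in limma. It was 0.54 without the array of control replicates 3 and 4, and 0.39 to 0.62 over the 28 alternatives.

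Smad1 (Entrez gene 17125), a Smad of the BMP branch, was read by a pair of probes. Probe 23838 ran from -1.94 to -0.52 in control samples, with a median of -0.99, and from -0.40 to 0.10 in shear samples, with a median of -0.09. The groups did not overlap, and the lowest controls were replicates 3 and 4. The change was 0.97 ± 0.35 (SE, n = 6 per group), with an interval of 0.22 to 1.72 and an adjusted p of 0.20 in limma, and it was 0.62 without their array. The other probe, 3183, ran from -1.24 to -0.09 in control and from -0.22 to 0.74 in shear samples. Its groups overlapped, and its change was 0.71, or 0.40 without that array.

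**Figure D2:**
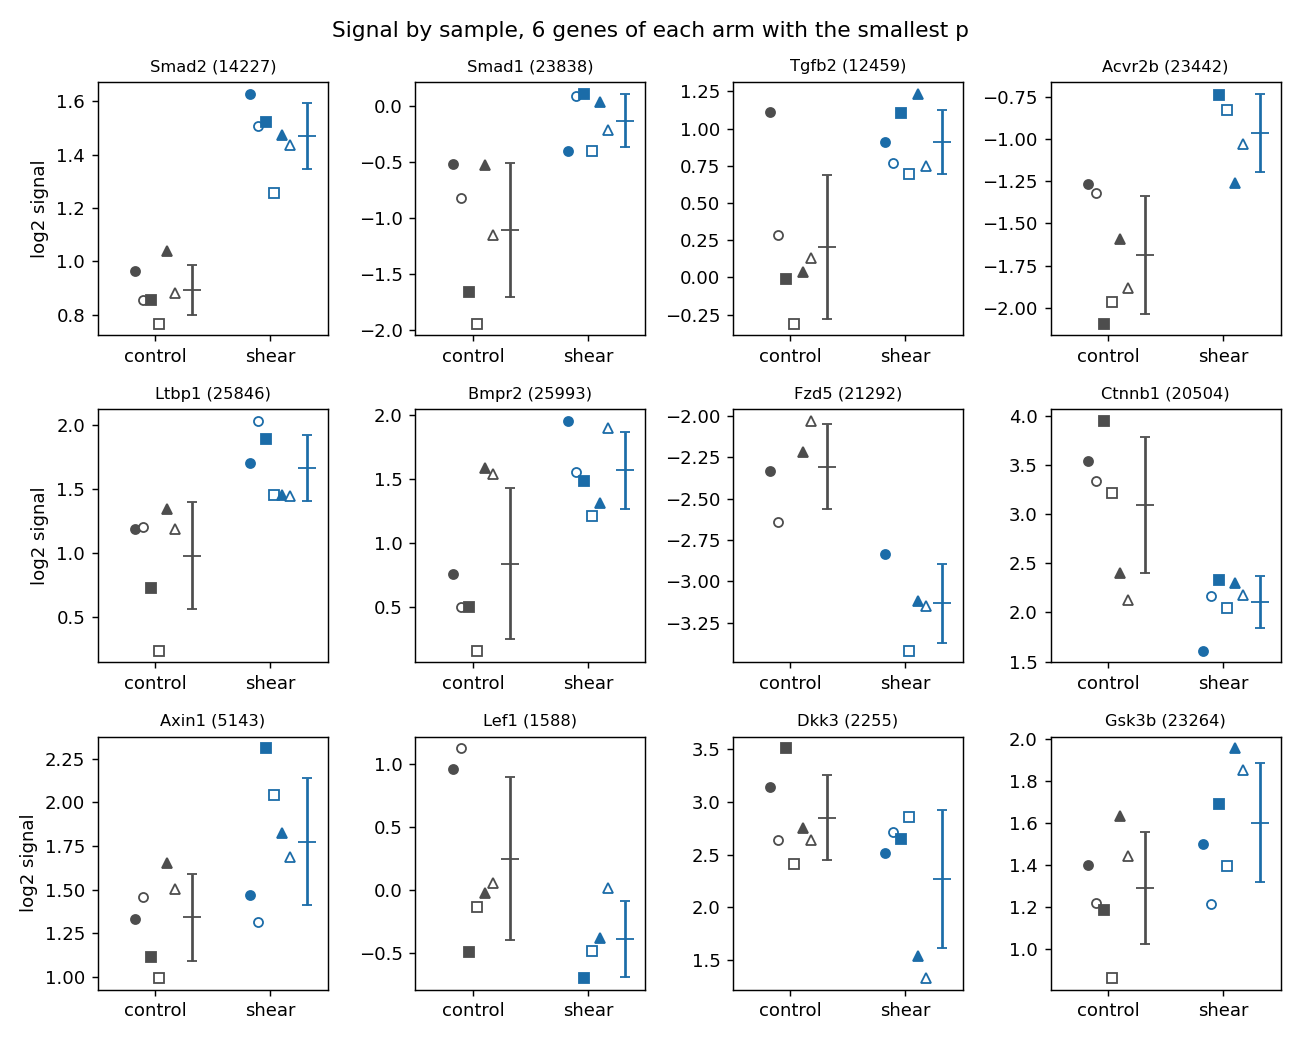
Log2 signal (vertical axis, each panel on its own scale) in each control (grey) and shear (blue) sample for 1 probe of each of the 6 genes with the smallest p in the TGF-beta and BMP arm (Smad2 to Bmpr2) and in the Wnt arm (Fzd5 to Gsk3b), with the mean and SD at the right of each group. Circles, squares and triangles are replicates 1 and 2, 3 and 4, and 5 and 6, filled for Cy5 and open for Cy3. Smad2 parts the groups with little spread within them (SD 0.09 and 0.12), while in Smad1 and Ltbp1 control replicates 3 and 4 are the lowest samples.

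The other Smads had smaller changes. Smad4, the partner shared by both branches, had 1 tested probe at 0.43 (interval -0.10 to 0.95). Smad5, which like Smad1 serves the BMP branch, had probes at 0.24 and 0.14. Smad3 had 5 probes between -0.34 and 0.37, of both signs, and the highest of them, 27036, was -0.17 without the array of control replicates 3 and 4. The inhibitory Smad7 had probes at 0.09 and -0.05. Of the 13 Smad probes 10 lay above 0, with a median of 0.16, and 9 without that array. The Id factors, transcriptional inhibitors that BMP signalling is known to induce, had probes at 0.56 and 0.48 (Id2), 0.24 and 0.19 (Id4) and -0.18 (Id3). With control replicates 3 and 4 left out, the Id2 probes were at 0.26 and 0.27, the Id4 probes at -0.17 and 0.10 and Id3 at -0.38. The Id2 intervals were wide (-0.57 to 1.69 and -0.84 to 1.80), and Id1 had no value in any sample.

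Among ligands, Tgfb2 (Entrez gene 21808), whose promoter stretch is shown above, had 4 probes that did not share a sign. Probe 12459 ran from -0.31 to 1.11 in control samples, with a median of 0.08, and from 0.70 to 1.23 in shear samples, with a median of 0.84. The groups overlapped through control replicate 1, the highest control. The change was 0.70 ± 0.30 (SE, n = 6 per group), with an interval of 0.07 to 1.34 and an adjusted p of 0.29 in limma. Probes 18408 and 1496 had changes of 0.63 and 0.58, with intervals that held 0, and the first was 0.27 without the array of control replicates 3 and 4. Probe 9009 had a change of -0.16 (interval -0.73 to 0.41).

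Bmp1, a protease that cleaves procollagen and the BMP antagonist chordin, had 6 probes between -0.23 and 0.34, 4 of them above 0. The lowest, 11059, was at 0.15 without the array of control replicates 3 and 4. Bmp5 and Bmp15, both BMP-family ligands, had 1 tested probe each, at -0.18 and 0.06, and the latter was -0.07 without that array. Bmp4 had no value in any sample.

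Ltbp1 (Entrez gene 268977), which binds latent TGF-beta in the matrix, ran from 0.24 to 1.34 in control samples, with a median of 1.18, and from 1.45 to 2.03 in shear samples, with a median of 1.58. The groups did not overlap. The change was 0.68 ± 0.30 (SE, n = 6 per group), with an interval of 0.04 to 1.32 and an adjusted p of 0.31 in limma, and it was 0.43 without the array of control replicates 3 and 4. Its relative Ltbp4 had probes at 0.49 and 0.01, and the first was -0.08 without that array. Follistatin (Fst), which binds activin, had a change of 0.00 (interval -0.86 to 0.86), or -0.23 without it.

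The receptors did not share a direction. Acvr2b (Entrez gene 11481), a type II activin receptor, was at -1.26, -1.32, -2.09, -1.96, -1.59 and -1.88 in control replicates 1 to 6 and at -0.74, -0.83, -1.26 and -1.03 in shear replicates 3 to 6. It had no value in shear replicates 1 and 2, and the groups, though close, did not overlap. The change was 0.72 ± 0.30 (SE, n = 6 control and 4 shear), with an interval of 0.07 to 1.37 and an adjusted p of 0.29 in limma.

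Bmpr2 (Entrez gene 12168), the type II BMP receptor, had probes at 0.73 and 0.53. The first, 25993, ran from 0.15 to 1.58 in control samples, with a median of 0.63, and from 1.21 to 1.95 in shear samples, with a median of 1.51. The groups overlapped: control replicates 5 and 6 lay among the shear samples, and the other 4 control samples lay below all of them. The change was 0.73 ± 0.35 (SE, n = 6 per group), with an interval of -0.02 to 1.48 and an adjusted p of 0.36 in limma, and it was 0.47 without the array of control replicates 3 and 4. Bmpr1a, a type I BMP receptor, had 3 probes at 0.50, 0.22 and 0.02, the last of them at -0.03 without that array.

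Tgfbr1 and Tgfbr3 lay on opposite sides of 0. Tgfbr1, the type I TGF-beta receptor, had probes at 0.59 and 0.54, and the first rested on 1 array: shear replicates 1 and 2 were at -0.42 and -0.49, the other shear samples at -1.92 to -2.13 and the control samples at -1.73 to -2.59. The second was 0.33 without the array of control replicates 3 and 4. Tgfbr3 (Entrez gene 21814), also called betaglycan, a co-receptor that presents ligand, had all 4 tested probes below 0, at -0.62, -0.62, -0.48 and -0.12, the last of them above 0 in 2 of 28 alternatives. On probe 13791 the control samples ran from -0.37 to 0.60, with a median of 0.25, and the shear samples from -1.03 to 0.22, with a median of -0.55. The groups overlapped on each of the 4 probes, the intervals all held 0 (for 13791, -1.51 to 0.28), and shear replicates 1 and 2 lay within the control range on probe 13791. Tgfbr2, the type II TGF-beta receptor, had 1 probe at -0.36 with a wide interval (-1.58 to 0.87). Acvr1, Acvr1b and Acvrl1, type I receptors, had changes of 0.31, 0.24 and 0.10.

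**Figure D3:**
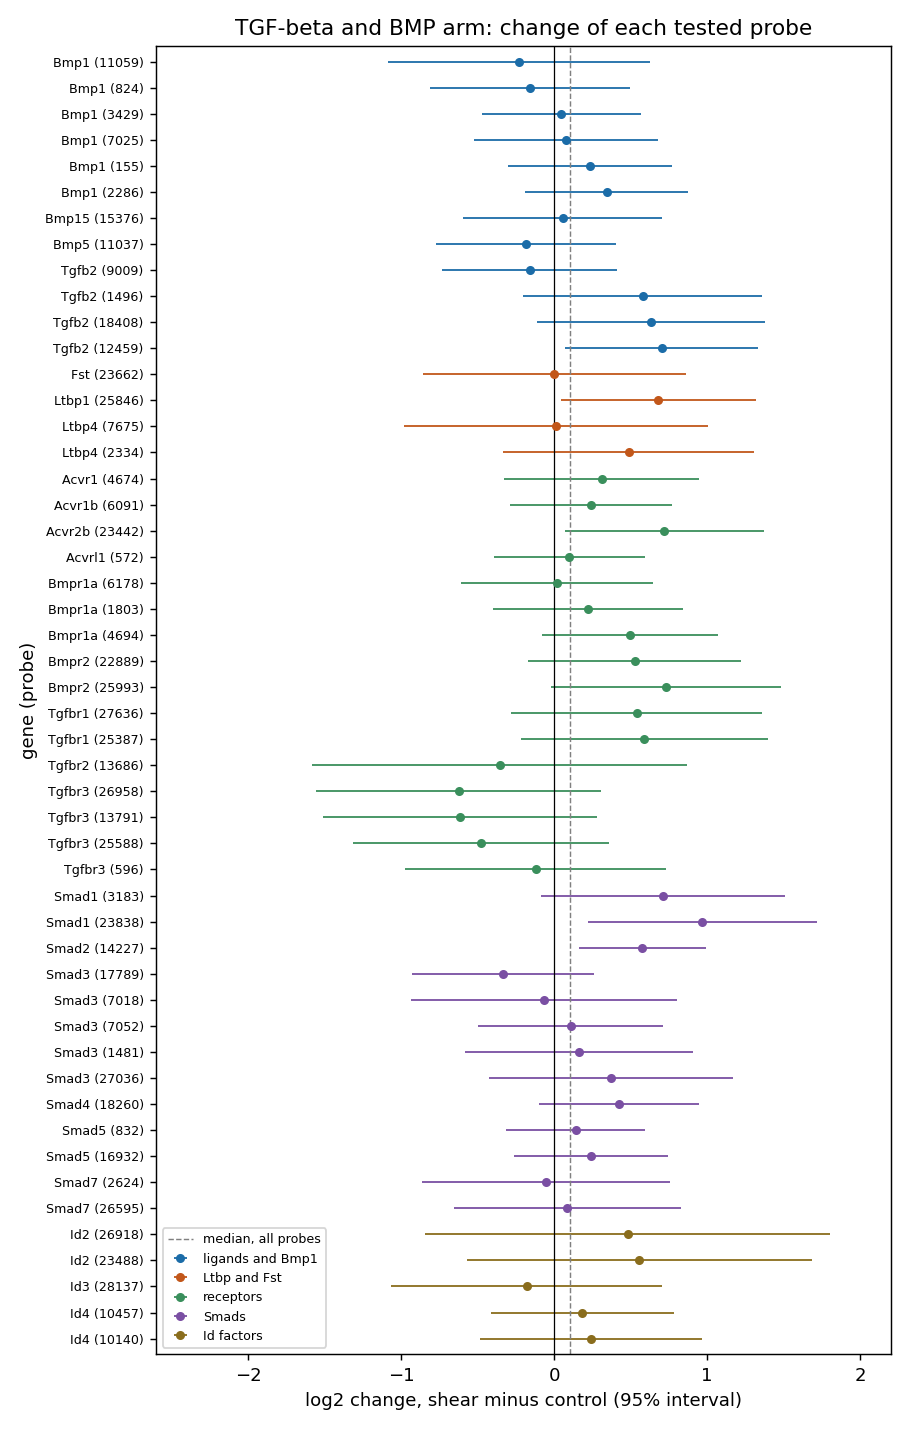
Log2 change, shear minus control (horizontal axis), with its 95% interval from limma for each of the 50 tested probes of the TGF-beta and BMP arm, grouped by role and coloured by it. The black line is no change and the dashed line the median over all probes (0.10). The intervals of Smad2, Ltbp1, Acvr2b and 1 probe each of Smad1 and Tgfb2 lie above 0, and the 4 Tgfbr3 probes lie left of it with intervals that hold 0.

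In the Wnt arm the changes of largest size were negative and each in 1 probe. Ctnnb1 (Entrez gene 12387), which encodes beta-catenin, had 3 tested probes. On probe 20504 the control samples ran from 2.13 to 3.95, with a median of 3.27, and the shear samples from 1.61 to 2.33, with a median of 2.17. The groups overlapped: control replicate 6, at 2.13, lay among the shear samples, replicate 5, at 2.40, just above them, and the other 4 control samples at 3.21 or higher. The change was -0.99 ± 0.39 (SE, n = 6 per group), with an interval of -1.82 to -0.17 and an adjusted p of 0.24 in limma. The other probes, 25948 and 27149, had changes of 0.09 (interval -0.66 to 0.84) and 0.07 (interval -0.61 to 0.75), so the 3 probes of the gene disagreed. With the array of control replicates 3 and 4 left out, the 3 changes were -0.75, -0.04 and 0.19.

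Fzd5 (Entrez gene 14367), a Frizzled receptor, was the other probe with an interval below 0. Probe 21292 was at -2.34, -2.64, -2.22 and -2.03 in control replicates 1, 2, 5 and 6 and at -2.84, -3.42, -3.12 and -3.15 in shear replicates 1, 4, 5 and 6. The 4 shear values lay below the 4 control values, and the remaining samples had no value. The change was -0.82 ± 0.30 (SE, n = 4 per group), with an interval of -1.49 to -0.16 and an adjusted p of 0.23 in limma. These signals are faint: the 5th percentile of all features lay between -2.87 and -2.18 in the 12 samples. The other Frizzled receptors tested were Fzd8 at 0.32, Fzd3 at 0.09, Fzd2 at 0.00, Fzd9 at -0.20 and Fzd1 at 0.04 and -0.24 on a pair of probes, all with intervals that held 0. Fzd9 was at 0.13 and the Fzd1 probes at -0.10 and -0.42 without the array of control replicates 3 and 4.

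The Wnt ligands had 5 tested probes, 4 of them above 0, but 1 of 5 without the array of control replicates 3 and 4. Wnt2 was at 0.40, Wnt5b at 0.16, Wnt3a at -0.12 and Wnt4 at 0.50 and 0.06. The higher Wnt4 value rested on the array of control replicates 3 and 4, which were at -2.46 and -1.82 while all other samples were at -0.93 to -0.16, and it was -0.01 without that array. The other Wnt4 probe was then at -0.20, Wnt5b at -0.10 and Wnt2, the one above 0, at 0.51. Wnt2 split the shear samples: replicates 1 and 2 were at -0.23 and -0.25, below the control median of 0.26, and replicates 3 to 6 at 0.85 to 1.62, above every control sample.

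The secreted inhibitors were on both sides of 0. Dkk3 (Entrez gene 50781), a member of the Dickkopf family, had probes at -0.58 and -0.23. On probe 2255 the control samples ran from 2.41 to 3.50, with a median of 2.69, and the shear samples from 1.33 to 2.85, with a median of 2.58. Only shear replicates 5 and 6, on 1 inferred array, lay below the control samples, at 1.54 and 1.33. The change was -0.58 ± 0.41 (SE, n = 6 per group), with an interval of -1.46 to 0.30 and an adjusted p of 0.56 in limma, and its smallest size over the alternatives was -0.17. Dkk1, an inhibitor that binds the Lrp co-receptors, was at -0.19 (interval -0.83 to 0.46). Sfrp1, which binds Wnt proteins, had 3 probes at 0.28, 0.21 and 0.06, and Sfrp2 had 1 at -0.21 with the widest interval of all members (-2.49 to 2.07).

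In the cytoplasmic complex, Axin1 (Entrez gene 12005), the scaffold, had 3 probes of the same sign, at 0.43, 0.42 and 0.29. On probe 5143 the control samples ran from 0.99 to 1.65, with a median of 1.40, and the shear samples from 1.32 to 2.31, with a median of 1.76. The groups overlapped, with shear replicates 3 and 4 the highest. The change was 0.43 ± 0.25 (SE, n = 6 per group), with an interval of -0.09 to 0.96 and an adjusted p of 0.45 in limma, and it stayed above 0 over the 28 alternatives, at 0.23 to 0.62. The 3 changes were 0.29, 0.23 and 0.20 without the array of control replicates 3 and 4.

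Gsk3b (Entrez gene 56637), the kinase of the complex, had 7 probes between -0.35 and 0.31, 4 above 0 and 3 below. Without the array of control replicates 3 and 4 the split was 1 above and 6 below: probe 14708 went from 0.20 to -0.32, 25982 from 0.22 to -0.04 and 3974 from 0.03 to -0.21. Probe 23264, with the smallest p of them, ran from 0.86 to 1.63 in control samples, with a median of 1.31, and from 1.22 to 1.96 in shear samples, with a median of 1.60. The groups overlapped, and the change was 0.31 ± 0.22 (SE, n = 6 per group), with an interval of -0.16 to 0.79 and an adjusted p of 0.56 in limma, and it was 0.18 without that array. Apc, which helps hold beta-catenin in the complex, had 4 probes at 0.46, 0.11, 0.02 and -0.31, and the first was 0.14 and the third -0.03 without it.

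Of the TCF/LEF factors, through which beta-catenin acts, 4 of 5 probes lay below 0, with a median of -0.46. Lef1 (Entrez gene 16842, probe 1588) was at 0.96, 1.12, -0.49, -0.14, -0.03 and 0.05 in control replicates 1 to 6 and at -0.70, -0.48, -0.38 and 0.01 in shear replicates 3 to 6. Control replicates 1 and 2 were the highest, the groups overlapped, and shear replicates 1 and 2 had no value. The change was -0.64 ± 0.36 (SE, n = 6 control and 4 shear), with an interval of -1.41 to 0.14 and an adjusted p of 0.45 in limma, and it ranged from -0.92 to -0.24 over 21 alternatives. Without the array of control replicates 3 and 4 it was -0.92. Tcf7l2 was at -0.51 (interval -1.38 to 0.36), or -0.16 without that array. Tcf7l1 had probes of both signs, at -0.46, -0.28 and 0.48, or -0.72, -0.70 and 0.33 without it.

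**Figure D4:**
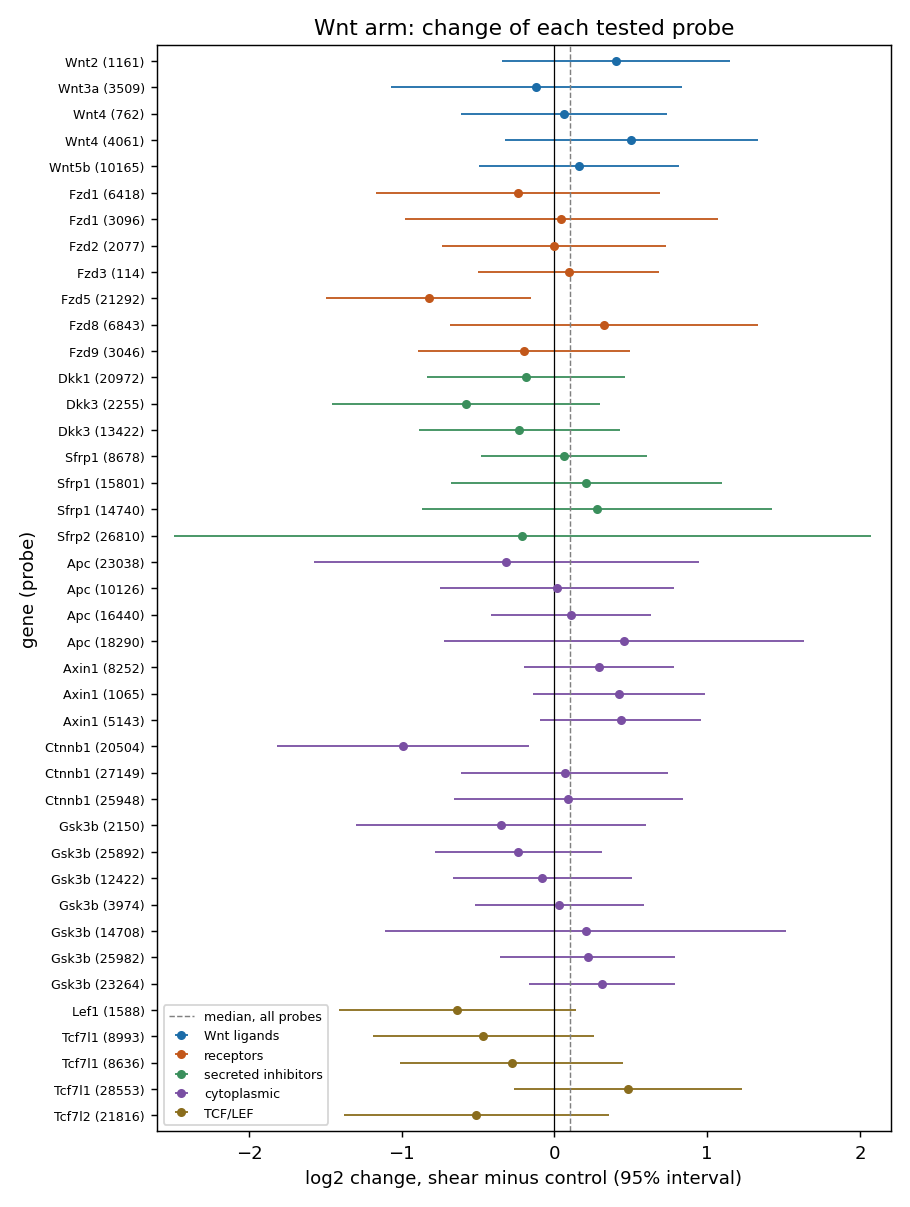
Log2 change, shear minus control (horizontal axis), with its 95% interval from limma for each of the 41 tested probes of the Wnt arm, grouped by role and coloured by it. The black line is no change and the dashed line the median over all probes (0.10). Only Fzd5 and 1 of the 3 Ctnnb1 probes have an interval that leaves out 0, and both lie below it.

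Probes of 1 gene did not always share a sign. Of genes with at least 2 tested probes, 4 of 9 in the Wnt arm (44.4%) and 9 of 13 in the TGF-beta and BMP arm (69.2%) had all probes on 1 side of 0, against 57.4% of 4049 genes on the whole array. The genes with all probes on 1 side included Smad1, Bmpr2, Tgfbr1, Bmpr1a, Id2 and Axin1 above 0 and Tgfbr3 and Dkk3 below it. Of these 8 genes, Bmpr1a alone lost this without the array of control replicates 3 and 4. The genes not named above were less steady, all with probes above 0 in the main fit. Without that array Id4 and Ltbp4 lost it, both Wnt4 probes turned below 0, and Sfrp1 and Smad5 kept it.

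Other genes of the same pathways, from lists made by name with earlier results of these data known, included some probes that passed, to be read against the 1.62% called over all probes (310 higher and 44 lower). Known targets that are themselves members were left out of the target lists. For Wnt these were Lef1 (-0.64), Dkk1 (-0.19) and Fst (0.00), none of which passed, and Axin2, which had no value. Among the other known Wnt target genes, 4 of 32 probes (16 genes) were higher and 0 lower, against 1.62% called over all probes. All of them were Myc and Plaur. Myc, a growth-promoting transcription factor, had 3 probes at 1.85, 1.81 and 1.76 (3.61-, 3.51- and 3.38-fold, adjusted p 0.0047, 0.0051 and 0.014 in limma), and its 4th probe was at 0.38 with an interval of -1.66 to 2.42. Plaur, the urokinase receptor, was at 2.74 ± 0.36 (SE, n = 6 per group), 6.66-fold, with an adjusted p of 0.0032 in limma. Both genes are also known to respond to other signals. Cd44, at 1.04 on each of its probes, and Jun, at 1.00, missed the threshold, as did the cyclin genes Ccnd1 (0.25 and -0.48) and Ccnd2.

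Among Wnt regulators outside the rule, 1 of 93 probes (44 genes) was higher and 0 lower, a share below the 1.62% called over all probes. It was a probe of Csnk1e, a casein kinase that acts in Wnt signalling, at 1.09 (interval 0.56 to 1.62, adjusted p 0.042 in limma), and it missed the threshold in 17 of 28 alternatives, among them the one without the array of control replicates 3 and 4. Ppp2ca (0.93), Ppp2cb (0.78) and Csnk2a2 (1.10), subunits of a phosphatase and a kinase, missed it, each on its probe with the smallest p. The other Ppp2ca probe was at 0.41, and the other Csnk2a2 probes ran from -0.01 to 1.13. Ppp2r5c, a further subunit of that phosphatase, had probes at -2.10, -0.05 and 0.01, which also missed it. The median change was 0.11, against 0.10 over all probes, and over the Wnt targets it was 0.32.

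Among regulators of TGF-beta and BMP signalling, 3 of 94 probes (40 genes) were higher and 0 lower, against 1.62% called over all probes, and all of them were Strap and Skil. The count was 1 without the array of control replicates 3 and 4 and 0 with each array averaged. Strap, a protein that binds TGF-beta receptors and Smad7, had probes at 1.13 and 1.13 that passed (adjusted p 0.020 and 0.029 in limma) but missed the threshold in 6 and 10 of 28 alternatives, and 3 more probes at 1.67, 0.83 and 0.82 that did not pass. Skil, a corepressor of Smads that TGF-beta also induces, was at 1.44 (interval 0.71 to 2.17, adjusted p 0.049 in limma) and missed the threshold in 23 of 29 alternatives. Nedd4l (1.48), Fkbp1a (1.18) and Smurf1 (1.04), each on its probe with the smallest p, missed it. The first and last are ubiquitin ligases that act on Smads or receptors. The median change of this list was 0.30, against 0.10 over all probes. Of its 94 probes 58 lay above 0, against 60% of all probes, and the lowest change, -1.99, missed the threshold.

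Known TGF-beta and BMP targets that are members were again left out, and none of them passed. These were Smad7 (0.09 and -0.05), Id2 (0.56 and 0.48), Id3 (-0.18), Id4 (0.24 and 0.19) and Id1, which had no value. Among the other known TGF-beta and BMP target genes, 2 of 39 probes (22 genes) were higher and 1 lower, against 1.62% called over all probes. Lox, which cross-links collagen, was at 2.10 ± 0.41 (SE, n = 6 per group), 4.30-fold, with an adjusted p of 0.022 in limma, and it missed the threshold in 4 of 29 alternatives, each without 1 array. Skil was the other. Dlx5, an osteoblast transcription factor that BMP induces, was at -0.97 ± 0.23 (SE, n = 6 per group), with an adjusted p of 0.048 in limma, and it missed the threshold in 23 of 29 alternatives. Pmepa1 (1.41), Snai1 (1.24), Smurf1 (1.04) and Zeb1 (0.89), all known to respond to TGF-beta, missed it. The collagen genes Col1a1 (-0.25) and Col1a2 (0.45 and 0.05) had intervals wider than 1 log2 unit on either side. The median change of this list was 0.45, against 0.10 over all probes. Of its 39 probes 27 lay above 0, against 60% of all probes, and the lowest change, -1.39, missed the threshold. Without the array of control replicates 3 and 4 the counts of higher probes were 4 for Wnt targets, 0 for Wnt regulators, 1 for TGF-beta and BMP regulators and 1 for TGF-beta and BMP targets.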

How the data were processed

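Total RNA of 12 samples (6 control, 6 shear) was copied into Cy5 or Cy3 cDNA, per the labels' protocols. The deposited log2 values were made by the authors: each equals log2 of net fluorescence, in whole numbers, over the median of its block, as 100% of them did within 0.002. The sources used here do not give the scanner, background correction or spot filter. Median net fluorescence per sample was 243 to 868.

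limma 3.58.1 (R 4.3.3) was fitted to every probe with at least 4 values per group, with fixed terms for group and dye and duplicateCorrelation over arrays (correlation 0.727), called the array block below. Each array held 1 group, so the comparison rests on 3 arrays per group and the p-values can be too small. P-values were adjusted (Benjamini-Hochberg) over 21883 probes, with a threshold of 0.05. Changes are shear minus control. The fit was tested on simulated data, where 4 of 83 calls were false. Member probes with the smallest p in each arm (6 genes) are given in full. For the pathway lists the rule named genes that passed and the 4 with the smallest p; others were chosen after their values were seen. The members and lists were chosen with earlier results of these data known. Alternatives changed the block, dye term, scaling, filter and samples. Python 3.11.15 with pandas 2.3.3 and matplotlib 3.10.9 was used for tables and plots.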

Additional observations from a re-analysis of the deposited data

Results flagged for a closer look

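In 1 of 56 groups of member values examined, a sample lay far from the rest: shear replicate 1 of Gsk3b probe 25982 was at 1.20, with the next shear sample at 0.80, a gap of 0.73 of the group's range. Chance gives such a gap in about 1 in 20 groups.

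Of the 12 member probes with some values but too few to be tested, some had higher and others lower signals under shear. Grem1, a BMP antagonist, had a mean of -0.17 in shear replicates 1 and 2, on 1 inferred array, and -1.99 in the 6 control samples. The second Fzd5 probe, 27688, was at -2.85 in 1 shear sample and at a mean of -3.27 in 2 control samples, the opposite order to the tested Fzd5 probe. Bmpr1b was also higher, at a mean of -2.45 in 3 shear samples and -2.82 in 1 control sample. Probes of 4 genes had lower means under shear than in control samples. These were Bmp5 (-2.38 in 5 shear and -1.83 in 2 control samples) and Fst (-3.13 in 2 and -2.87 in 3). The others were Bmp15 (-3.71 in 1 and -3.21 in 2) and Fzd3 (-2.87 in 6 and -1.76 in 3). The Fzd3 order rested on control replicate 5, at 0.57, with the other control values at -2.96 and -2.89. By median, Fzd3 was at -2.63 in shear and -2.89 in control samples, the opposite order. Lrp5 was at -2.10 and -2.07, and the rest had no value in any shear sample. None of these differences was tested.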

How the results depend on the processing

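The count of member probes past the threshold was 0 in each arm and direction, except that without the array block 4 of the TGF-beta and BMP arm were higher (Smad2, Smad1, Tgfb2 and Ltbp1) and 2 of the Wnt arm lower (Fzd5 and Ctnnb1), and that with the replicate number as a block, which leaves out the array block, 2 of the TGF-beta and BMP arm were higher (Smad2 and Smad1). Both fits treat samples of an array as independent. The replicate numbers did not pair the samples: deviations correlated at -0.091 to 0.116, and 1 of 6 samples correlated best with its own number. The Wnt median was -0.14 with cyclic loess, -0.12 with 1 probe per gene, -0.056 with quantile normalization, and -0.0037 to 0.098 when 1 sample was left out. The count of all probes higher (310) and lower (44) became 98 and 8 with each array averaged, 1972 and 692 without the array block, 1700 and 540 with the replicate block and 473 and 85 without the dye term. The higher count was 205 with quantile normalization and 200 with 1 probe per gene, and the lower 132 centred on common features and 123 with cyclic loess. Without 1 array, the higher count was 199, 174 and 153 for control replicates 1 and 2, 3 and 4, and 5 and 6, and 174, 69 and 89 for the same shear replicates; the lower count was 12, 76 and 19 for the controls, and 7 and 16 for shear replicates 3 and 4, and 5 and 6. Leaving out 1 sample gave 162 to 319 higher and 18 to 88 lower. For the pathway lists, alternatives chosen after seeing the data gave, with each array averaged, 0 higher Wnt regulators, 0 higher TGF-beta and BMP regulators, and 1 higher and 0 lower targets of that arm. Centring on common features left 1 higher target of that arm. Leaving out control replicates 3 and 4 gave 0, 1, 1 and 0 in the same order. The causes were not tested.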
